A study of Mus musculus with 10 samples.

Results

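Keratins are the intermediate filament proteins of epithelial cells, and their genes were described here in 10 mouse pancreatic tumours. A row of the deposited count table was counted as a keratin when its symbol was Krt, a number and at most 1 further letter. By this rule 54 of 55487 rows were keratins, 28 of type I and 26 of type II. Keratin-associated proteins and keratin pseudogenes with a suffix did not match, but the matched Krt74 is annotated as a transcribed unitary pseudogene. Enough reads for a test were found for 15 of the 54, and the other 39 are described by their counts.

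The tumours came from KPF mice, a pancreatic cancer model on the C57BL/6J background, and the labels do not spell out its alleles. The 5 tumours labelled Grem1-deleted came from mice given tamoxifen at 100 mg/kg, and the 5 tumours labelled Grem1 wild-type came from mice given the peanut oil vehicle. Both groups were dosed daily on 5 days from 5 weeks of age and were used at 6 to 12 weeks, so the deletion and tamoxifen itself cannot be told apart. Neither the promoter that drives the recombinase nor the cells that lose Grem1 is named. The samples are described as bulk tissue although the extraction protocol speaks of sorted cells, and the labels do not settle this. The titles carry an ID whose number is shared by several tumours, with 36, 38 and 40 found in both groups, and its meaning is not given. Nothing in the labels says which mouse each tumour came from, so p-values measure the spread between these tumours.

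Keratin filaments are built from pairs of 1 type I and 1 type II protein. Simple epithelia, pancreatic ducts among them, use Krt8 and Krt7 (type II) with Krt18 and Krt19 (type I), and Krt20 is known from intestinal epithelium. Stratified epithelia use Krt5 with Krt14 in their basal layer and Krt1 with Krt10 above it, and Krt6a, Krt16 and Krt17 are known from wounded or stressed epidermis.

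Total estimated counts ran from 10159891 to 18571519 per tumour, and keratins took 0.148% to 0.421% of them. Grem1 itself had 47.6, 110, 12.6, 6.83 and 23.7 CPM (reads assigned to a gene, divided by the scaled library size and put on a per-megaread scale) in tumours labelled deleted, against 15.7, 43.1, 23.0, 3.97 and 9.48 CPM in wild-type tumours. It was not lower in the tumours labelled deleted (log2 fold change 1.08, standard error (SE) 0.79, adjusted p = 0.761 by edgeR's quasi-likelihood test), so "deleted" below is the label of a library. The sources used here do not give the deleted part of Grem1, so reads outside it could count. Among tumours labelled deleted, 2 stood apart. Tumour 1 had an epithelial content of 6.04, where the other 9 tumours had 7.28 to 7.90. Epithelial content is the mean log2 CPM of the epithelial adhesion and splicing genes Epcam, Cdh1, Cldn7 and Esrp1. Tumour 2 had a summed 3206 CPM over 8 markers of intestinal epithelium, where no other tumour exceeded 347 CPM. Keratin results that rest on these tumours are given with and without them. The count column of deleted tumour 1 lacks the ID number that stands in its title and was matched by the rest of the ID.

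Promoter windows are shown for 6 keratins that the level and group comparisons turn on and that had a window, so that the filament partners can be set side by side. Each window is 300 bases of GRCm38.p6 from RefSeq, with 250 bases before the annotated start and 50 after it, written 5′ to 3′ on the strand of the gene. Capitals mark TATAAA and GGGCGG, searched on both strands, so that CCGCCC is GGGCGG read from the other strand.
Krt8: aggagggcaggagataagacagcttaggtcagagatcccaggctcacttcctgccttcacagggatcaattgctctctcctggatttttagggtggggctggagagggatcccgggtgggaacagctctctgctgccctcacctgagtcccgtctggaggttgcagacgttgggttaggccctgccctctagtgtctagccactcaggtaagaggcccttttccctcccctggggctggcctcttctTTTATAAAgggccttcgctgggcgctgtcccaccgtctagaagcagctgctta
Krt18: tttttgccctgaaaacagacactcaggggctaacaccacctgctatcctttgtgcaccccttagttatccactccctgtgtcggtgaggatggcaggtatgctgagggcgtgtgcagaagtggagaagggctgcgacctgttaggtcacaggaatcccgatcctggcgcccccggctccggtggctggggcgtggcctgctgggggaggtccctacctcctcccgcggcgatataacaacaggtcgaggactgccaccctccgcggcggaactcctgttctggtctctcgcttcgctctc
Krt7: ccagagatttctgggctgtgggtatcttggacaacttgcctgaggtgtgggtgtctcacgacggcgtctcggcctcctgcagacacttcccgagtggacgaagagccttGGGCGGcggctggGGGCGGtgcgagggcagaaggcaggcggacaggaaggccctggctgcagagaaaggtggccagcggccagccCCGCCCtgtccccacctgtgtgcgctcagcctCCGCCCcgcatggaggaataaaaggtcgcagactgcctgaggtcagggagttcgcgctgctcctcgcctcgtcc
Krt20: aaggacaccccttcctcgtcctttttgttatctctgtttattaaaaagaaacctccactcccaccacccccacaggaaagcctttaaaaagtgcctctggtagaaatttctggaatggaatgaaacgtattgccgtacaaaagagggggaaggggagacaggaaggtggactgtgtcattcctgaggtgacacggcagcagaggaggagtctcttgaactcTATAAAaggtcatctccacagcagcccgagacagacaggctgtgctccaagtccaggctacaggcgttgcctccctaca
Krt23: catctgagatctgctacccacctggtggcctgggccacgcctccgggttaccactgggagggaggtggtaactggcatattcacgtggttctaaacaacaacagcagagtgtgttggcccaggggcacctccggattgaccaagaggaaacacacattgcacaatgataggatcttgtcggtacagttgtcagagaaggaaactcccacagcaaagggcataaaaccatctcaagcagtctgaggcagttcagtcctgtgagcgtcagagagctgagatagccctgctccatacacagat
Krt14: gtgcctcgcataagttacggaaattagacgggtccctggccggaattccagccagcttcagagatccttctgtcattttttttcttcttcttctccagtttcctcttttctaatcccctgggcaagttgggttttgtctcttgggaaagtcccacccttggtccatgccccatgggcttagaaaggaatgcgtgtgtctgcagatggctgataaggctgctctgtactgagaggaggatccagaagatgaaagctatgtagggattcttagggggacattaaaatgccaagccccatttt

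The Krt8 window lies at chr15:102004293-102004592 on the minus strand and the Krt18 window at chr15:102027966-102028265 on the plus strand. Krt18 is the single type I keratin on chromosome 15, and its annotated start lies 23.9 kb from that of Krt8, its filament partner. The Krt7 window lies at chr15:101412153-101412452 on the plus strand. The windows of Krt20, at chr11:99438104-99438403, and Krt23, at chr11:99493071-99493370, are on the minus strand, as is that of Krt14 at chr11:100205981-100206280. The RefSeq start of Krt7 and of Krt14 lies more than 1 kb inside the gene as GENCODE annotates it. Krt14, Krt18 and Krt23 had no match to any motif searched. Krt7 had 4 matches to GGGCGG and a GC content of 66.3%, against a median of 52.7% over 32851 windows of all genes. Krt20 had TATAAA 29 bases before its start. In Krt8 the marked TTTATAAA holds TATAAA on both strands, in overlap, right at the annotated start. Windows were available for 36 of the 54 keratins, 9 of the 15 tested. TATAAA was in 19 of the 36 and in 13.6% of all windows, GGGCGG in 2 of the 36 and in 35.7% of all windows, and TGANTCA, also searched on both strands, in 1 of the 36 and in 7.81% of all windows. A match is a run of letters and not a shown binding site.

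The tumours made mostly the keratins of simple epithelium. Per kilobase of the longest coding transcript, Krt8 averaged 571 ± 164 CPM per kb over all tumours, Krt18 536 ± 125 and Krt19 325 ± 95.1 (SD, n = 10). Krt8 and Krt18 did not differ beyond their spread, and both means lay above that of Krt19. Krt7 followed at 175 ± 53.5 CPM per kb, then Krt20 at 56.4 ± 21.5 and Krt23 at 28.2 ± 10.7 (SD, n = 10). The place of Krt7 below Krt19 rests on its length. In CPM not divided by length, Krt7 averaged 556 CPM in tumours labelled deleted and 877 CPM in wild-type tumours, against 456 and 567 CPM for Krt19. The longest coding transcript of Krt7 has 4094 bases and its joined exons 7049. The other 9 tested keratins averaged between 0.57 and 4.76 CPM per kb. Krt8, Krt18, Krt19 and Krt7 together held 90.2% to 95.3% of the summed CPM per kb of the tested keratins in every tumour.

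**Figure D1:**
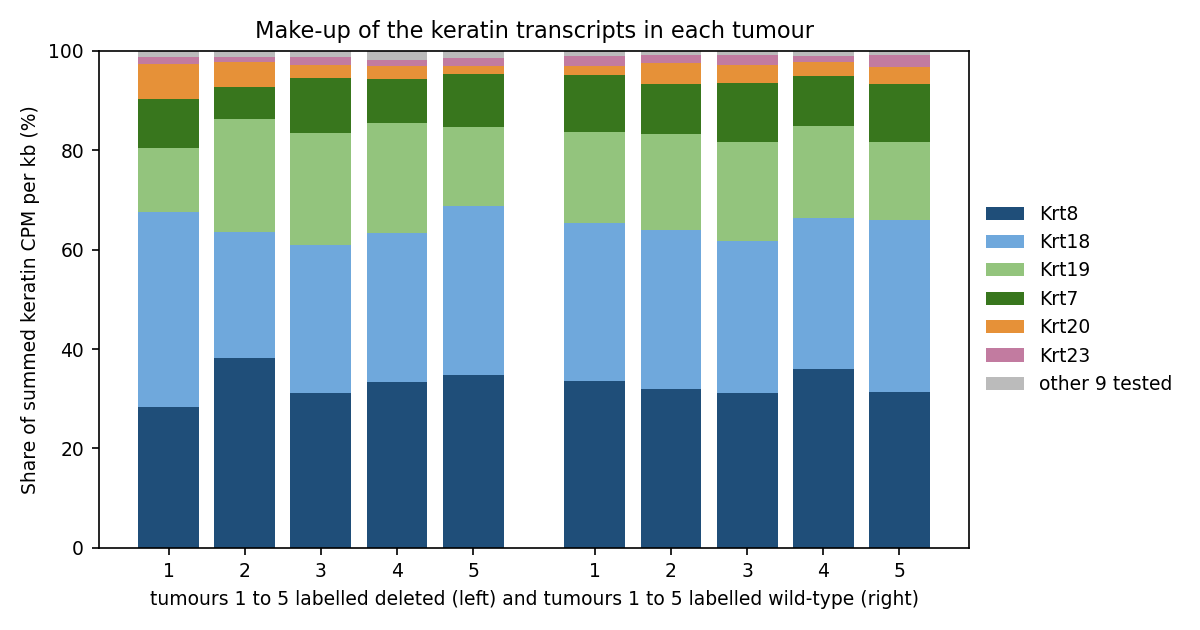
Share of the summed CPM per kb of the tested keratins (%, vertical axis) held by each keratin in each tumour, with tumours labelled deleted on the left and wild-type on the right. Krt8, Krt18, Krt19 and Krt7 hold 90.2% to 95.3% of every bar.

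The make-up of the filament pairs varied most in the tumours that stood apart. The ratio of Krt8 to Krt18 per kb was 0.72, 1.51, 1.05, 1.12 and 1.02 in tumours labelled deleted, against 1.06, 1.00, 1.02, 1.19 and 0.90 in wild-type tumours. Deleted tumours 1 and 2 held the lowest and the highest of these ratios, and the other 8 lay between 0.90 and 1.19. The ratio of Krt19 to Krt18 per kb was likewise lowest in deleted tumour 1, at 0.33, and highest in deleted tumour 2, at 0.90. Summed over the tested keratins, type II against type I per kb gave 0.76 ± 0.08 in tumours labelled deleted and 0.80 ± 0.05 in wild-type tumours (SD, n = 5 each). This difference lay within their spread. All these ratios rest on the lengths used, and the sums on that of Krt7 among them.

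The question put to each keratin was whether its level differed between tumours labelled deleted and wild-type. No keratin passed edgeR's quasi-likelihood test after Benjamini-Hochberg adjustment over 16565 genes: 0 of 15 keratins and 0% of all genes tested were called, and no adjusted p was under 0.759. Unadjusted p-values lay under 0.05 for 983 genes, 5.93% of those tested, and for 4 of the 15 keratins. Of these 4, Krt7, Krt18 and Krt23 were lower in tumours labelled deleted, as were 2.46% of all genes, and Krt14 was higher, as were 3.47%. DESeq2 called 7 genes and no keratin, and limma-voom called 0. The log2 fold change was below 0 for 11 of the 15 keratins and for 44.9% of all genes, with a median of -0.35 for the keratins and 0.03 for all genes. All 6 tested type II keratins were below 0 (median -0.61), and 5 of 9 of type I (median -0.02). No keratin had groups that did not overlap, where all 5 tumours labelled deleted lay below all 5 wild-type tumours for 0.435% of genes and above them for 0.495%.

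**Figure D2:**
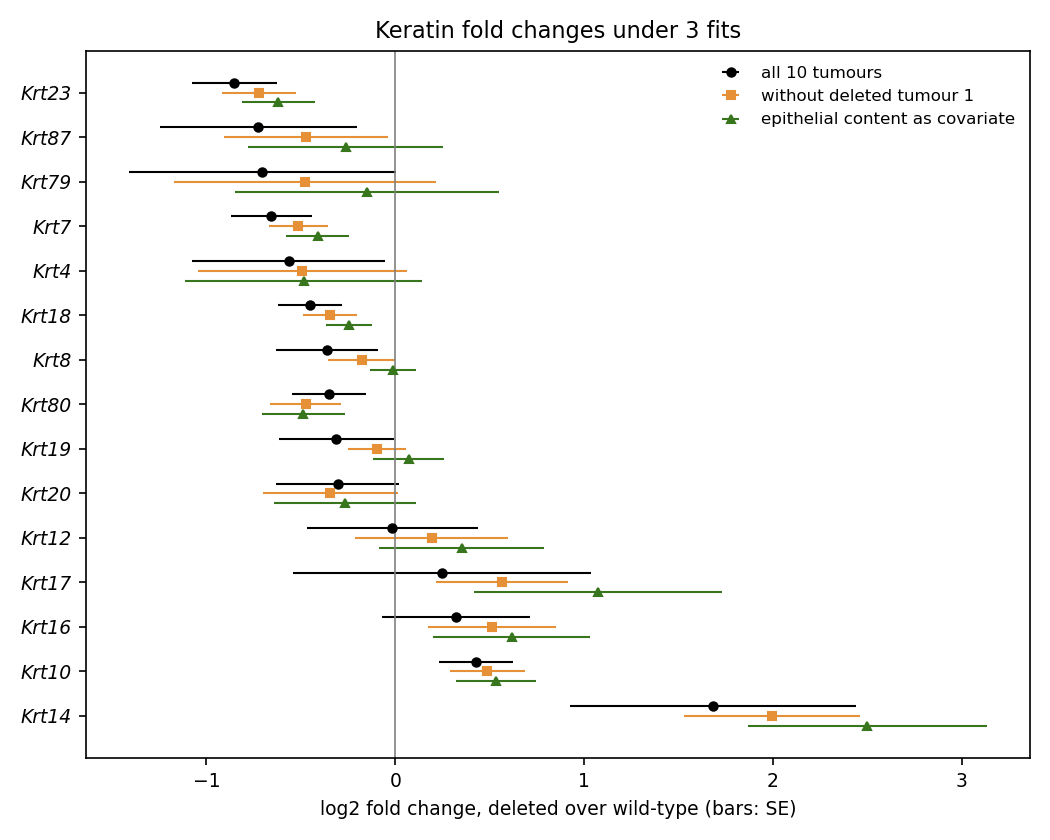
Log2 fold change (labelled deleted over wild-type, horizontal axis) of the 15 tested keratins in 3 edgeR fits: all 10 tumours, without deleted tumour 1, and with epithelial content as a covariate; bars show 1 SE. Over all tumours Krt23 lies lowest (-0.85) and Krt14 highest (1.68), Krt8 moves to -0.01 with the covariate, and no keratin passed the adjusted test in any of the 3 fits.

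All 4 simple keratins had a log2 fold change below 0 (median -0.41), and none passed the test. Krt7 and Krt18 lay below the wild-type range in 4 of 5 tumours labelled deleted, Krt8 in 3 and Krt19 in 1. Krt7, a type II keratin of ducts, had 320, 488, 596, 532 and 845 CPM in tumours labelled deleted, against 824, 835, 1014, 897 and 817 CPM in wild-type tumours. Deleted tumours 1 to 4 lay below every wild-type tumour and deleted tumour 5 within their range. It averaged 556 ± 191 CPM in tumours labelled deleted and 877 ± 82.8 CPM in wild-type tumours (SD, n = 5 each; log2 fold change -0.66, SE 0.21, adjusted p = 0.759, edgeR). Krt18, the type I partner of Krt8, had 449, 673, 564, 628 and 939 CPM in tumours labelled deleted, against 809, 918, 908, 959 and 858 CPM in wild-type tumours (log2 fold change -0.45, SE 0.17, adjusted p = 0.759, edgeR). Its order of tumours was the same kind, with deleted tumours 1 to 4 below the wild-type range and tumour 5 inside it. At least 4 of 5 tumours labelled deleted lay below the lowest wild-type tumour for 3 of the 15 keratins, Krt7, Krt18 and Krt23, and for 3.47% of all genes.

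Krt8 had 441, 1388, 804, 955 and 1305 CPM in tumours labelled deleted, against 1163, 1250, 1265, 1556 and 1058 CPM in wild-type tumours. Deleted tumours 1, 3 and 4 lay below the wild-type range and tumours 2 and 5 inside it, and the log2 fold change was -0.36 (SE 0.27). Krt19, a type I duct keratin, had 161, 666, 470, 509 and 475 CPM in tumours labelled deleted, against 515, 606, 645, 645 and 423 CPM in wild-type tumours. Only deleted tumour 1 lay below the wild-type range, and deleted tumour 2 was the highest of all 10. The log2 fold change of Krt19 was -0.31 (SE 0.30), and -0.10 (SE 0.15) without deleted tumour 1. For Krt8 it was -0.18 (SE 0.18) without that tumour, for Krt7 -0.51 (SE 0.16) and for Krt18 -0.35 (SE 0.14).

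**Figure D3:**
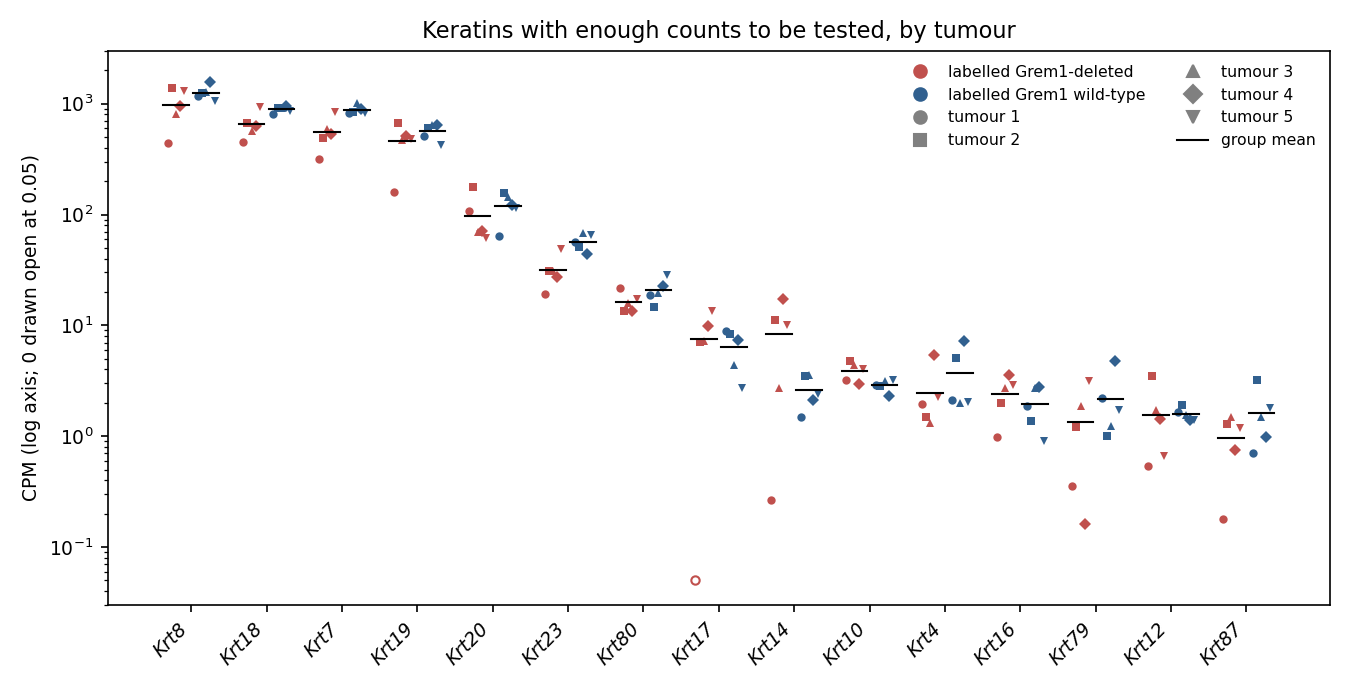
CPM of the tested keratins in each tumour on a log axis, tumours labelled deleted left of wild-type tumours. Krt7 in deleted tumours 1 to 4 (320 to 596 CPM) lies below all wild-type tumours (817 to 1014 CPM), and Krt17 in deleted tumour 1, at 0 CPM, is drawn open at the foot of the axis.

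Epithelial content was lower in most of the tumours labelled deleted in which simple keratins were lower. It was 6.04, 7.84, 7.28, 7.34 and 7.83 log2 CPM in tumours labelled deleted, against 7.66, 7.73, 7.71, 7.90 and 7.89 log2 CPM in wild-type tumours. Deleted tumours 2 and 5 were within the wild-type range and the other 3 below it. In deleted tumour 2, Krt7 and Krt18 lay below every wild-type tumour. That tumour carried the intestinal markers, and its Cldn7, a gene of the epithelial content, was 187 CPM, against at most 127 CPM elsewhere. The part of intestinal cells in its epithelial content was not tested. Epcam, an epithelial adhesion protein, averaged 417 ± 154 CPM in tumours labelled deleted and 561 ± 30.2 CPM in wild-type tumours (SD, n = 5 each). Without deleted tumour 1, Epcam averaged 479 ± 81.7 CPM in tumours labelled deleted (SD, n = 4). Vim, the intermediate filament of mesenchymal cells, stood at 3376 CPM in deleted tumour 1, where the other 9 tumours had 758 to 1724 CPM. That tumour was also the lowest of all 10 for the summed CPM of 7 fibroblast markers (5348), 6 macrophage markers (1156) and 5 endothelial markers (130), and for the share of mitochondrial counts (1.37%). The sums did not hold for each marker. The fibroblast marker Pdgfrb was highest of all 10 in that tumour, at 353 CPM against at most 225 CPM elsewhere. Pdgfra, C1qa, C1qb and Cdh5 were among the markers that were not lowest there. Between groups, the log2 fold change was below 0 for 6 of 6 macrophage markers (median -0.60) and 5 of 5 endothelial markers (median -0.43), none past the test. The part of these differences in the keratin levels was not tested. In bulk tissue, fewer epithelial cells and less keratin RNA per cell cannot be told apart.

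Fitted with epithelial content as a covariate, the log2 fold change of Krt8 was -0.01 (SE 0.12) and that of Krt19 0.07 (SE 0.19). Those of Krt7, at -0.41 (SE 0.17), Krt18, at -0.25 (SE 0.12), and Krt23, at -0.62 (SE 0.19), stayed below 0. Keratins above 0 in the main fit lay further above it here: Krt14 at 2.50 (SE 0.63), Krt17 at 1.07 (SE 0.66), Krt16 at 0.62 (SE 0.41) and Krt10 at 0.53 (SE 0.21). None passed the adjusted test in this fit (adjusted p = 0.9997 for the lowest, edgeR). Subtracting epithelial content from log2 CPM left Krt8 at 2.56 ± 0.14 in tumours labelled deleted and 2.51 ± 0.21 in wild-type tumours (SD, n = 5 each). On the same scale Krt18 averaged 2.04 ± 0.45 in tumours labelled deleted and 2.02 ± 0.11 in wild-type tumours, so the sign of its difference turned from that of the covariate fit. Krt7 averaged 1.78 ± 0.44 in tumours labelled deleted and 1.99 ± 0.18 in wild-type tumours, and Krt23 -2.35 ± 0.42 in tumours labelled deleted and -1.97 ± 0.32 in wild-type tumours (SD, n = 5 each), differences within the spread of the tumours labelled deleted. Deleted tumour 2, which carried the intestinal markers, was the lowest of all 10 on this scale for Krt7 (1.09), Krt18 (1.56) and Krt23 (-2.88). Without deleted tumours 1 and 2 the log2 fold changes without this covariate were -0.42 (SE 0.16) for Krt7 and -0.33 (SE 0.16) for Krt18. Mesothelial cells also make simple keratins. Their 6 markers summed to 221 to 339 CPM in tumours labelled deleted and 135 to 475 CPM in wild-type tumours, most of it Msln. Lrrn4, another of them, had 0.18, 2.27, 13.4, 9.71 and 2.37 CPM in tumours labelled deleted and at most 2.32 CPM in wild-type tumours, and was highest in deleted tumours 3 and 4. Msln had 137 and 238 CPM in those tumours and was highest in wild-type tumour 2, at 431 CPM. Lrrn4 had 0.91 CPM there, so the sum does not stand for each marker. For 10 acinar markers the sums were 94.8 to 15275 CPM in tumours labelled deleted and 25.8 to 20001 CPM in wild-type tumours. The part of these cell types in the keratin levels was not tested.

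**Figure D4:**
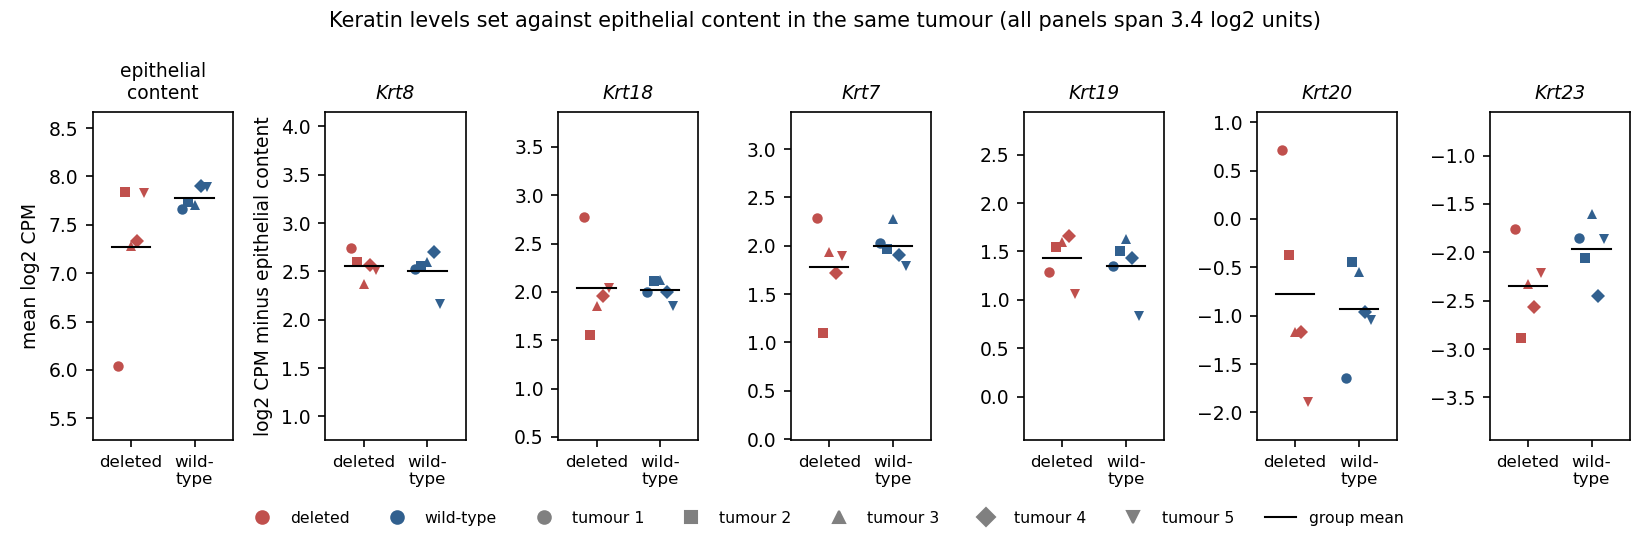
Epithelial content (mean log2 CPM of Epcam, Cdh1, Cldn7 and Esrp1) in the first panel and log2 CPM minus epithelial content of 6 keratins in the others, 1 point per tumour with group means as lines, labelled deleted left of wild-type. Deleted tumour 1 lies lowest for epithelial content (6.04), and the groups overlap in every panel. Krt10, which is not drawn, had groups that did not overlap on this scale, and the share of all genes without overlap on it was not computed.

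Krt23 and Krt20, linked to intestinal and glandular epithelium and both of type I, had log2 fold changes below 0, and neither passed the test. Krt23, a type I keratin, had 19.3, 30.9, 30.9, 27.2 and 49.1 CPM in tumours labelled deleted, against 56.1, 50.8, 68.6, 43.6 and 65.0 CPM in wild-type tumours. Deleted tumours 1 to 4 lay below all wild-type tumours. Its log2 fold change, -0.85 (SE 0.23, adjusted p = 0.759, edgeR), was the one with the smallest unadjusted p among the keratins, 0.00367, and it was -0.67 (SE 0.22) without deleted tumours 1 and 2. Krt20 had 108, 177, 69.1, 71.4 and 61.3 CPM in tumours labelled deleted, against 64.5, 157, 143, 122 and 115 CPM in wild-type tumours. Deleted tumour 2, which carried the intestinal markers, was the highest of all 10 for Krt20. Wild-type tumour 2 came next, at 157 CPM, with an intestinal marker sum of 190 CPM, against 3206 CPM in deleted tumour 2. With epithelial content subtracted from log2 CPM, Krt20 was highest in deleted tumour 1 (0.71). With deleted tumour 2 the log2 fold change of Krt20 was -0.30 (SE 0.32), without it -0.63 (SE 0.26), and without deleted tumours 1 and 2 -0.84 (SE 0.25). The intestinal marker Cdh17, a cadherin, stood at 283 CPM in deleted tumour 2 and at no more than 71.3 CPM elsewhere. The part of intestinal cells in the Krt20 level was not tested.

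Keratins of basal and stressed epithelium were scarce, and the 3 of 7 that could be tested had log2 fold changes above 0 (median 0.32), none past the test. Krt14, the basal type I keratin, had 0.27, 11.2, 2.71, 17.5 and 10.1 CPM in tumours labelled deleted, against 1.49, 3.46, 3.55, 2.14 and 2.42 CPM in wild-type tumours. Deleted tumours 2, 4 and 5 lay above every wild-type tumour and deleted tumour 1 below them. It averaged 8.35 ± 6.92 CPM in tumours labelled deleted and 2.61 ± 0.88 CPM in wild-type tumours (SD, n = 5 each; log2 fold change 1.68, SE 0.76, adjusted p = 0.759, edgeR). The log2 fold change of Krt14 was 1.99 (SE 0.47) without deleted tumour 1, 1.21 (SE 0.76) without deleted tumour 4 and 1.02 (SE 1.03) with limma-voom. Over all alternatives it ran from 0.68 to 2.50, the highest with epithelial content as a covariate. Krt17 had 0, 7.10, 7.22, 9.77 and 13.6 CPM in tumours labelled deleted, against 8.96, 8.29, 4.38, 7.45 and 2.72 CPM in wild-type tumours. The 0 in deleted tumour 1 allows a level of up to 0.27 CPM, from 3 counts at its depth and for counting error only. Its log2 fold change was 0.25 (SE 0.79) with that tumour and 0.56 (SE 0.35) without it, and it turned to -0.73 with limma-voom. Krt16 ran from 0.98 to 3.58 CPM in tumours labelled deleted and from 0.91 to 2.81 CPM in wild-type tumours. Krt14, Krt16 and Krt17 are near-identical in parts, so the split of their reads is uncertain.

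The usual type II partner of Krt14 was almost missing. Krt5 had 1 estimated count in all tumours labelled deleted together and 4 in the wild-type tumours, all below the filter. Of the stress keratins of type II, Krt6a had 1, 27.9, 1, 15.8 and 20 counts in tumours labelled deleted, against 2, 4, 4, 0 and 3 counts in wild-type tumours. Deleted tumours 2, 4 and 5, high for Krt14, were also the 3 highest for Krt6a, which shares reads with its near copy Krt6b (9.36 counts in all). Of 7 skin markers, Flg, Dsg1a, Krtdap, Lce1a1 and the basal regulator Trp63 stayed under 1 CPM in every tumour. The desmosomal cadherin Dsg3, also of that list, had 0.53, 3.26, 1.31, 4.00 and 2.37 CPM in tumours labelled deleted, against 1.73, 2.28, 3.06, 1.04 and 1.11 CPM in wild-type tumours. Among tumours labelled deleted its order was that of Krt14, with tumour 4 highest and tumour 1 lowest, and the groups overlapped. Lor, a cornified envelope protein, had 21.8, 15.5, 5.66, 15.3 and 15.7 CPM in tumours labelled deleted, against 7.31, 15.7, 10.2, 10.7 and 6.15 CPM in wild-type tumours. Its order was not that of Krt14, since it was highest in deleted tumour 1, where Krt14 was lowest. The part of squamous cells in the Krt14 and Krt6a levels was not tested.

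Of 13 keratins of suprabasal and mucosal epithelium, 5 were tested, 4 of them with a log2 fold change below 0 (median -0.35). Krt80, a broadly expressed type II keratin, had 21.8, 13.5, 15.8, 13.5 and 17.4 CPM in tumours labelled deleted, against 18.9, 14.6, 19.7, 22.8 and 28.6 CPM in wild-type tumours (log2 fold change -0.35, SE 0.20). Krt10 had 3.20, 4.75, 4.43, 2.99 and 4.01 CPM in tumours labelled deleted, against 2.91, 2.82, 3.14, 2.32 and 3.23 CPM in wild-type tumours (log2 fold change 0.43, SE 0.20). On the CPM scale the groups overlapped for both keratins. With epithelial content subtracted from log2 CPM, the groups did not overlap for Krt10. It ran from -5.78 to -4.29 in tumours labelled deleted and from -6.60 to -5.99 in wild-type tumours. Epithelial content itself averaged 7.27 in tumours labelled deleted and 7.78 in wild-type tumours. It was lowest in deleted tumour 1 (6.04), so the subtraction takes the least from every gene there. In CPM, Krt10 in deleted tumours 1 and 4 lay within the wild-type range. The share of all genes without overlap on the subtracted scale was not computed. Krt4, the mucosal type II keratin, Krt12, known from the cornea, and Krt79 had log2 fold changes of -0.57 (SE 0.51), -0.02 (SE 0.45) and -0.70 (SE 0.71). Leaving out wild-type tumour 4, the highest for both, gave -0.17 (SE 0.49) for Krt4 and -0.19 (SE 0.72) for Krt79. The single tested member of the 28 hair and other keratins, Krt87, had -0.72 (SE 0.52) at 0.18 to 3.19 CPM. Exons of Krt7, Krt8, Krt10, Krt12 and Krt80 overlap a gene on the other strand, and the sources used here do not say if counting was by strand. Those partner genes had at most 44 counts in any tumour. For Krt12 the partner, A830036E02Rik, had 3 to 30 counts where Krt12 itself had at most 49, so the overlap is of the size of the signal. Krt5, Krt6a, Krt6b, Krt76 and 3 other untested keratins also overlap such genes, which had at most 4 counts in any tumour.

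Of the 39 keratins that were not tested, 15 had 0 counts in all 10 tumours, which allows a level of up to 0.16 to 0.30 CPM per tumour. Another 14 had a summed count of at most 9.36, and 10 had 10 or more. Krt13, a mucosal type I keratin, had 13, 48, 4, 16 and 6 counts in tumours labelled deleted, against 4, 8, 19, 13 and 0 counts in wild-type tumours. Krt15, a basal type I keratin, had 2, 34, 1, 5 and 3 counts in tumours labelled deleted, against 3, 9, 1, 1 and 0 counts in wild-type tumours. Krt76 had 20 of its 27 counts in deleted tumour 2. Deleted tumour 2 was thus the highest tumour for Krt13, Krt15, Krt76 and Krt6a.

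**Figure D5:**
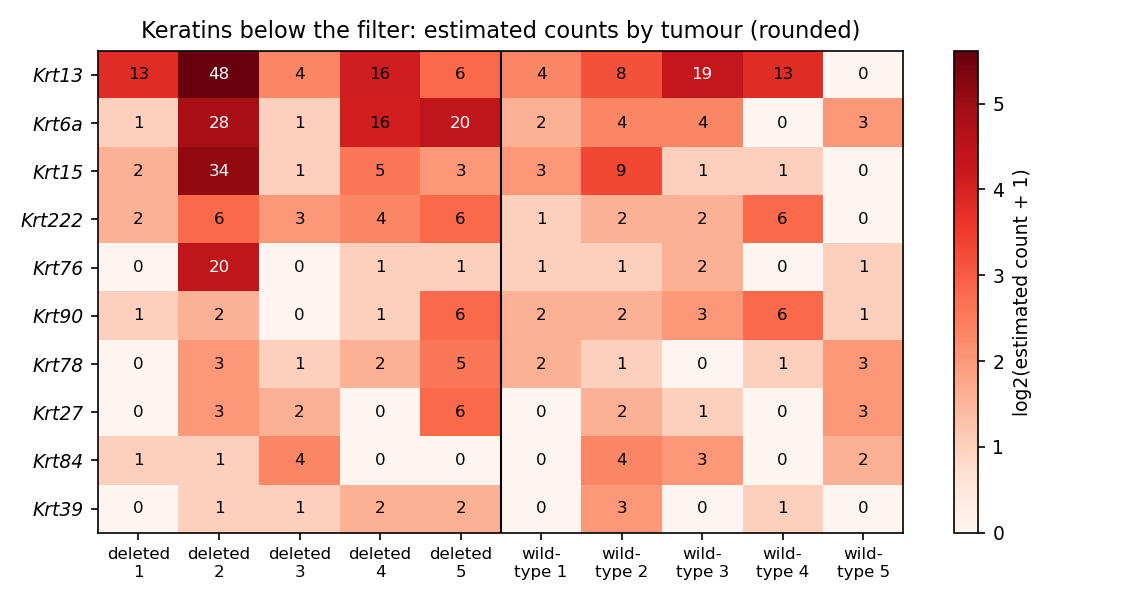
Estimated counts per tumour, rounded, of keratins too scarce to be tested, tumours labelled deleted left of wild-type tumours. Deleted tumour 2 holds the highest count of Krt13 (48), Krt15 (34), Krt6a (27.9, drawn as 28) and Krt76 (20).

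Partners of the keratin network were read from lists, and none of their genes passed edgeR's adjusted test. Of 11 desmosome genes, which anchor keratin filaments between cells, 9 were tested and 8 had a log2 fold change below 0 (median -0.30, against 0.03 for all genes). Jup, the desmosomal plaque protein plakoglobin, had 202, 237, 225, 250 and 278 CPM in tumours labelled deleted, against 290, 280, 296, 321 and 284 CPM in wild-type tumours. Its groups did not overlap, which held for 0.435% of genes in that direction (log2 fold change -0.30, SE 0.09, adjusted p = 0.759, edgeR). Of 8 tested hemidesmosome and linker genes, 5 were below 0 (median -0.14). Plec, the linker plectin, averaged 859 ± 234 CPM in tumours labelled deleted and 555 ± 104 CPM in wild-type tumours (SD, n = 5 each; log2 fold change 0.63, SE 0.21). It was highest in deleted tumours 1 and 2, and without both its log2 fold change was 0.35 (SE 0.19). Of 9 other intermediate filament genes tested, 7 were above 0 (median 0.47). Lmna, encoding the nuclear lamins A and C, averaged 526 ± 171 CPM in tumours labelled deleted and 367 ± 76.4 CPM in wild-type tumours. Its log2 fold change, 0.52 (SE 0.24), was 0.20 (SE 0.22) when deleted tumours 1 and 2 were left out. Of 7 tested envelope genes 6 were below 0 (median -0.11). Ivl, the cornified envelope protein involucrin, averaged 26.5 ± 13.2 CPM in tumours labelled deleted and 45.7 ± 21.8 CPM in wild-type tumours. Of 9 tested regulators of keratin genes, 3 were below 0 and 6 above (median 0.03). Tfap2a, a transcription factor of epidermal keratins, stood at 39.9 CPM in deleted tumour 1, where Krt14 and Krt17 were lowest, and at no more than 10.6 CPM elsewhere. Klf5, a factor of gut and basal epithelia, was highest in deleted tumour 2, at 146 CPM.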

How the data were processed

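Polyadenylated RNA of 10 tumours was sequenced on a NovaSeq instrument, per the labels' protocols. The authors deposited estimated counts per gene, with mm10, HISAT2 2.2.1, RSEM 1.3.3 and DESeq2 1.32.0 named in the submitters' processing notes. The sources used here give neither the annotation release nor the strand setting. The authors also deposited normalized log2 values per tumour, whose transformation is not named, and these served 1 alternative.

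Tumours were grouped by title. The count column of deleted tumour 1 lacks its ID number and was matched by the rest of the ID. Estimated counts, 7.96% of them not whole, were rounded. Genes were filtered with filterByExpr (minimum count 10), scaled with edgeR's TMM factors and tested with edgeR 4.0.16's robust quasi-likelihood F test in R 4.3.3, with Benjamini-Hochberg adjustment at 0.05. SE was taken from the F statistic, and a prior count of 2 was added before log2 CPM was taken. Positive fold changes mean higher in tumours labelled deleted. Lengths and positions are from GENCODE M21 on GRCm38. The common biological coefficient of variation was 0.355. No pair of libraries in a group agreed within sampling noise (lowest chi-square per degree of freedom 25.9).

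The keratins and all lists were chosen with earlier results of these data known. All keratins are accounted for, and of each other list the 2 tested genes with the smallest p could be named, with Epcam, Cdh1 and Vim. Protein sequences were not used here. Alternatives were DESeq2 1.42.0, limma-voom (limma 3.58.1), other scalings, no filter, epithelial content as covariate, a replicate block, leaving out tumours, and a block of tumour ID number added after seeing the data.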

Additional observations from a re-analysis of the deposited data

Results flagged for a closer look

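In 2 of 30 checks of a keratin in a group of 5, the lowest tumour on the log2 CPM scale lay farther from the others than Dixon's 95% critical value of 0.71 allows, and chance flags about 1 in 20 groups. Both were in deleted tumour 1. Krt19 stood at 161 CPM there, where the other 4 tumours labelled deleted had 470 to 666 CPM. Krt17 stood at 0 CPM there, where the other 4 had 7.10 to 13.6 CPM. On the CPM scale itself neither passes that value, and 1 other does: Krt4 in deleted tumour 4, at 5.39 CPM, where the other 4 had 1.31 to 2.24 CPM. Deleted tumour 1 had the lowest epithelial content of all 10, 6.04 log2 CPM. The part of its epithelial content in these values was not tested.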

How the results depend on the processing

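No keratin was called under any alternative run. Over all genes, DESeq2 called 7 and the other alternatives 0. Of 300 recomputed log2 fold changes of the 15 keratins, 290 kept their sign, and 11 keratins kept it throughout, Krt7, Krt8, Krt14, Krt18, Krt20 and Krt23 among them. Krt17 turned to -0.73 with limma-voom and -0.033 with the deposited log2 values, and leaving out 1 tumour gave -0.075 to 0.56. With epithelial content as a covariate, Krt19 turned to 0.071 and Krt12 to 0.35. Leaving out 1 tumour moved Krt12 between -0.53 and 0.19. Krt79 turned to 0.017 with the tumour ID number as a block over 8 tumours, an alternative chosen after seeing the data. That fit leaves out deleted tumours 1 and 4. Under it the median log2 fold change of the keratins was -0.11, against -0.35 in the main fit, and 10 keratins were below 0, against 11. Leaving out 1 tumour gave -1.08 to -0.17 for Krt4, -1.30 to -0.19 for Krt79, -0.63 to -0.18 for Krt20 and 1.21 to 1.99 for Krt14, with no change of sign. The cause of these turns was not tested.

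Replicate numbers did not pair the tumours throughout: same-numbered tumours correlated at -0.02 to 0.39 in their deviations from the group means, and 2 of 5 matched best with their own number. Deleted tumours 2, 3 and 5 have ID numbers that also occur among wild-type tumours. Each of them matched best with a wild-type tumour of the same ID number, namely wild-type tumours 1, 3 and 5. The main test does not use the ID number. With the replicate block, 0 genes were called, and the log2 fold change was -0.72 for Krt7 and 1.08 for Krt14. Levels of a few CPM, such as those of Krt12, Krt79 and Krt87, rest on few reads and limit what could be detected. With 5 tumours a group, a keratin that missed the threshold is not shown to be equal in both groups.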
